A study of Homo sapiens with 136 samples.

Results

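SCH772984, an inhibitor of the ERK kinases, was added to an autophagy inhibitor in AsPC-1, an established human line from pancreatic ductal adenocarcinoma. The libraries described were taken by their titles: 2 of AsPC-1 cells given SCH772984 with VSP34I and 2 given SCH772984 with hydroxychloroquine. These are 4 of the 68 AsPC-1 libraries and of the 136 libraries of the series. They were set against 6 libraries of VSP34I alone and 6 of hydroxychloroquine alone. The other 3 ERK inhibitors, ulixertinib, AZD0364 and ravoxertinib, were measured in 2 libraries each with either autophagy inhibitor, 12 in all. Cells had grown for 24 h in multi-well plates and were treated for 24 h, each agent at the concentration that had left 80% of cells viable after 48 h on its own. Their concentrations are not stated here, so the drugs are matched by viability and not by dose. Replicate 1 of every combination was on plate A and replicate 2 on plate B, and replicates 1 to 3 and 4 to 6 of the alone groups were on plates A and B. The labels do not say whether replicates were separate cultures, so p-values measure only the spread between these libraries. There were no untreated cells, and no ERK inhibitor was measured on its own, so every comparison has an autophagy inhibitor on both sides.

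In pancreatic cancer cells RAS signalling drives RAF, MEK and ERK, and active ERK turns on transcription factors of the AP-1 and ETS families, ligands of the EGF receptor and genes of the cell cycle. ERK also turns on its own brakes, among them the phosphatases DUSP4 and DUSP6 and the Sprouty and SPRED proteins, so these genes serve as readouts of ERK output. Autophagy breaks down cell contents in lysosomes, and pancreatic cancer cells are known to lean on it when ERK is blocked. VSP34I, named in the labels' protocol as Compound 19, inhibits Vps34, the lipid kinase that helps to start the autophagosome. Hydroxychloroquine acts later, in the lysosome, whose acidity it lowers.

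Expression was measured by PLATE-Seq, which makes barcoded libraries from cells lysed in culture plates and reads mainly the ends of transcripts. The 4 SCH772984 libraries held 2103585 to 3798971 counts, the 12 libraries of the other ERK inhibitors 2100698 to 5043437 and the 12 alone libraries 2135931 to 5172291. The shallowest of the 4 was SCH772984-VSP34I replicate 2. Levels are given in CPM, counts scaled to a common library size; the summed markers were scaled by total counts only, and single genes also by the TMM factors. Markers of ductal epithelium summed to 6372 and 6598 CPM with SCH772984 and VSP34I and to 5599 and 5641 CPM with SCH772984 and hydroxychloroquine, against 2951 to 3315 CPM in VSP34I alone and 3789 to 4079 CPM in hydroxychloroquine alone, with all 8 markers detected. Leukocyte markers summed to 12.7 CPM or less, endothelial markers to 1.97 CPM or less and acinar and islet markers to 0.475 CPM or less in these libraries, and CD3E, KDR, CPA1, INS and GCG had no count. Fibroblast markers summed to 197.5 and 221.5 CPM with SCH772984 and VSP34I and to 102.7 and 103.7 CPM with SCH772984 and hydroxychloroquine, against 45.5 to 86.8 CPM in VSP34I alone and 56.8 to 84.9 CPM in hydroxychloroquine alone. Most of this was LUM, which encodes lumican, at TMM-scaled levels of 203 and 219 CPM with SCH772984 and VSP34I, against 60.0 ± 18.0 CPM (SD, n = 6) in VSP34I alone, and its part in the rise of other genes was not tested. The share of mitochondrial ribosomal RNA was 4.98 ± 1.19% (SD, n = 4) in SCH772984 libraries. It was 4.02 ± 1.29% (SD, n = 12) in alone libraries. An exact two-sided permutation test within plate and autophagy inhibitor gave a raw p of 0.0078 (adjusted p = 0.0391 over 5 measures). By the same test the adjusted p was 0.0521 to 0.156 without any 1 SCH772984 library. The part of this share in the results was not tested.

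Adding SCH772984 to VSP34I moved 1620 of 12761 tested genes, 12.7%, with 828 higher and 792 lower (edgeR quasi-likelihood test, Benjamini-Hochberg adjusted p under 0.05, the rule behind every gene called here to rise, fall or differ). Adding it to hydroxychloroquine moved 821 genes, 6.43%, with 455 higher and 366 lower. Of these, 535 moved in the same direction with both autophagy inhibitors, which is 33% of the calls with VSP34I and 65.2% of those with hydroxychloroquine, and 2 moved in opposite directions. Averaged over both, 2231 genes moved (17.5%). The difference between both responses, tested for each gene, passed for 21 genes, 0.165% of those tested, so most genes called with VSP34I and not with hydroxychloroquine were not shown to differ between them. The count with VSP34I was 725 without SCH772984-VSP34I replicate 2, and without SCH772984-Hydroxychloroquine replicate 2 the count with hydroxychloroquine was 332.

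Genes that read out ERK fell when SCH772984 was added. Of 18 ERK feedback targets, 15 had enough counts to be tested, and 10 of them fell with VSP34I, where 6.21% of all tested genes fell. With hydroxychloroquine 5 of the 15 fell, where 2.87% of all tested genes fell. None rose with either, though 1 rose with hydroxychloroquine without SCH772984-Hydroxychloroquine replicate 2 or hydroxychloroquine-alone replicate 6. The median log2 fold change of the list was −1.14 with VSP34I, beside −0.05 over all tested genes, and −0.82 with hydroxychloroquine, beside −0.01. In bulk RNA fewer cells that express a gene and less of its RNA per cell cannot be told apart. The count with VSP34I was 6 without SCH772984-VSP34I replicate 2, and without SCH772984-Hydroxychloroquine replicate 1 the count with hydroxychloroquine was 3.

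DUSP6 (chr12:89347232-89353271, minus strand, GRCh38) encodes a phosphatase that takes phosphate off ERK. It was at 8.74 and 0.987 CPM in SCH772984-VSP34I replicates 1 and 2, against 69.2 ± 18.5 CPM in VSP34I alone (lowest 46.8, median 72.8, highest 90.0; SD, n = 6). It was at 21.5 and 25.9 CPM in SCH772984-Hydroxychloroquine replicates 1 and 2, against 71.7 ± 7.27 CPM in hydroxychloroquine alone (lowest 62.6, median 70.9, highest 82.5; SD, n = 6). All 4 SCH772984 libraries thus lay below all 12 alone libraries, and both libraries with VSP34I lay below both with hydroxychloroquine. The log2 fold change was −3.74 ± 0.42 (SE, adjusted p = 8.2e-10) with VSP34I and −1.60 ± 0.33 (adjusted p = 0.00066) with hydroxychloroquine. The value with VSP34I was −6.07 without SCH772984-VSP34I replicate 1 and −2.98 without its replicate 2, and the call with hydroxychloroquine was lost without its replicate 1 (−1.43, adjusted p = 0.06).

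PHLDA1 (chr12:76025447-76033932, minus strand), a pleckstrin-like gene that ERK induces, was at 54.7 and 49.4 CPM with SCH772984 and VSP34I, against 245.5 ± 37.8 CPM in VSP34I alone (lowest 204.6, median 237.7, highest 316.6; SD, n = 6). It was at 128 and 134 CPM with SCH772984 and hydroxychloroquine, against 319.7 ± 21.4 CPM in hydroxychloroquine alone (lowest 287.5, median 316.4, highest 348.8; SD, n = 6). Replicates of each pair were close, the SCH772984 and alone groups did not overlap, and the libraries with VSP34I were again the lowest. The log2 fold change was −2.24 ± 0.18 (SE, adjusted p = 2.1e-15) with VSP34I and −1.28 ± 0.16 (adjusted p = 3e-08) with hydroxychloroquine.

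SPRY4, a Sprouty protein that restrains RAS signalling, was at 2.66 and 10.9 CPM with SCH772984 and VSP34I, against 62.1 to 142.0 CPM in VSP34I alone. It was at 14.0 and 21.5 CPM with SCH772984 and hydroxychloroquine, against 89.1 to 189.9 CPM in hydroxychloroquine alone, and the groups did not overlap. It fell by 4.02 and by 2.89 on the log2 scale. The phosphatase gene DUSP4 fell too, to 35.0 and 31.1 CPM against 139.9 ± 20 CPM in VSP34I alone and to 77.0 and 47.3 CPM against 144.7 ± 21.3 CPM in hydroxychloroquine alone (SD, n = 6 each), with log2 fold changes of −2.08 ± 0.19 and −1.24 ± 0.17 (SE).

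The ETS factors ETV4 and ETV5, which ERK stabilises and induces, were low in all libraries. ETV5 was at 0.76 and 1.97 CPM with SCH772984 and VSP34I, against 17.9 ± 1.26 CPM in VSP34I alone, a log2 fold change of −3.73 ± 0.65 (SE, adjusted p = 1.7e-05). It was at 7.44 and 7.98 CPM with SCH772984 and hydroxychloroquine, against 13.1 ± 4.13 CPM in hydroxychloroquine alone (SD, n = 6), which did not pass (adjusted p = 0.44). ETV4 was at 0.38 and 0.493 CPM against 4.08 ± 2.29 CPM in VSP34I alone, and at 7.73 and 4.96 CPM against 6.16 ± 1.98 CPM in hydroxychloroquine alone (SD, n = 6 each), so with hydroxychloroquine the groups overlapped. It fell with VSP34I (−3.17 ± 0.99, SE, adjusted p = 0.023) and had a log2 fold change of 0.06 with hydroxychloroquine. The direct difference did not pass for ETV4 (adjusted p = 0.35) or ETV5 (adjusted p = 0.11). The VSP34I call of ETV4 was lost without either SCH772984-VSP34I replicate (−3.12 and −3.22, adjusted p = 0.17 and 0.19) and without VSP34I-alone replicate 3 (−2.78, adjusted p = 0.055).

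Of the remaining feedback targets, CCND1 (cyclin D1), SPRED2 and IER3 fell with VSP34I, with log2 fold changes of −1.14 ± 0.27, −1.58 ± 0.36 and −0.95 ± 0.30 (SE). With hydroxychloroquine their log2 fold changes were −0.63, −0.94 and −0.84 and did not pass (adjusted p = 0.16, 0.057 and 0.061). EPHA2, a receptor for ephrins, fell with both, by 0.96 and by 1.19 on the log2 scale. SPRY1, SPRY2, SPRED1, SPRED3 and ETV1 did not pass with either autophagy inhibitor, and SPRY1 had positive values of 0.45 with VSP34I and 0.98 with hydroxychloroquine (adjusted p = 0.5 and 0.06). The calls with VSP34I were lost without SCH772984-VSP34I replicate 1 for SPRED2 (−1.08, adjusted p = 0.14) and EPHA2 (−1.03, adjusted p = 0.14), and without its replicate 2 for CCND1 (−1.06, adjusted p = 0.083), IER3 (−0.63, adjusted p = 0.44) and EPHA2 (−0.90, adjusted p = 0.25). They were also lost without VSP34I-alone replicate 3 (−0.86, adjusted p = 0.061) or 6 (−0.89, adjusted p = 0.052) for EPHA2 and without its replicate 4 (−0.86, adjusted p = 0.051) for IER3. The call of EPHA2 with hydroxychloroquine was lost without SCH772984-Hydroxychloroquine replicate 1 (−0.97, adjusted p = 0.22).

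FOSL1 (chr11:65892049-65900573, minus strand) encodes FRA1, the AP-1 subunit that ERK both induces and stabilises. It was at 19.4 and 12.8 CPM with SCH772984 and VSP34I, against 266.8 ± 40.0 CPM in VSP34I alone (lowest 231.9, median 253.5, highest 338.0; SD, n = 6). It was at 59.8 and 73.0 CPM with SCH772984 and hydroxychloroquine, against 450.7 ± 53.8 CPM in hydroxychloroquine alone (lowest 378.8, median 441.0, highest 536.7; SD, n = 6). The SCH772984 libraries lay far below the alone libraries with either autophagy inhibitor, and VSP34I alone was itself lower than hydroxychloroquine alone (log2 difference −0.76). The log2 fold change was −4.03 ± 0.24 (SE, adjusted p = 2.4e-20) with VSP34I and −2.76 ± 0.21 (adjusted p = 1.3e-15) with hydroxychloroquine. FOSL2, the gene of another AP-1 subunit, moved the other way, with a log2 fold change of 1.34 with both (SE 0.24 and 0.23). It rose to 41.4 and 44.4 CPM against 16.9 ± 3.37 CPM in VSP34I alone and to 53.8 and 39.4 CPM against 18.0 ± 4.05 CPM in hydroxychloroquine alone (SD, n = 6 each).

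EGR1, a zinc finger factor that growth signals switch on within minutes, was at 1.52 and 0.00 CPM with SCH772984 and VSP34I, against 5.86 ± 2.72 CPM in VSP34I alone, and at 7.44 and 4.13 CPM with SCH772984 and hydroxychloroquine, against 29.1 ± 5.93 CPM in hydroxychloroquine alone (SD, n = 6 each). It fell by 2.77 and by 2.34 on the log2 scale. Without SCH772984-VSP34I replicate 1, which leaves the library with no count, the fitted value was −7.24. The calls were lost without SCH772984-VSP34I replicate 2 (−1.99, adjusted p = 0.18) and without SCH772984-Hydroxychloroquine replicate 2 (−2.04, adjusted p = 0.098). Of 32 immediate early genes, 28 were tested; 1 rose and 4 fell with VSP34I (median log2 fold change −0.40), and 1 rose and 5 fell with hydroxychloroquine (−0.26). Of all tested genes 6.49% rose and 6.21% fell with VSP34I, and 3.57% rose and 2.87% fell with hydroxychloroquine, so the rises are near or under background. The falls with VSP34I were 2 without SCH772984-VSP34I replicate 2, its rises were 2 or 3 when most other single libraries were left out, and without SCH772984-Hydroxychloroquine replicate 1 or 2 those with hydroxychloroquine were 2 or 1.

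VGF (chr7:101162509-101165593, minus strand) encodes a secreted neuropeptide precursor that growth factors induce. It was at 16.7 and 17.3 CPM with SCH772984 and VSP34I, against 105.4 ± 12.8 CPM in VSP34I alone (lowest 92.4, median 104.1, highest 122.5; SD, n = 6). It was at 47.5 and 56.7 CPM with SCH772984 and hydroxychloroquine, against 109.9 ± 14.3 CPM in hydroxychloroquine alone (lowest 87.9, median 113.8, highest 126.5; SD, n = 6). The alone groups overlapped in level, and both SCH772984 libraries with VSP34I were far below both with hydroxychloroquine. The log2 fold change was −2.63 ± 0.28 (SE, adjusted p = 6.3e-11) with VSP34I and −1.07 ± 0.24 (adjusted p = 0.0014) with hydroxychloroquine. The call with hydroxychloroquine was lost without its replicate 1 (−0.89, adjusted p = 0.12).

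**Figure D1:**
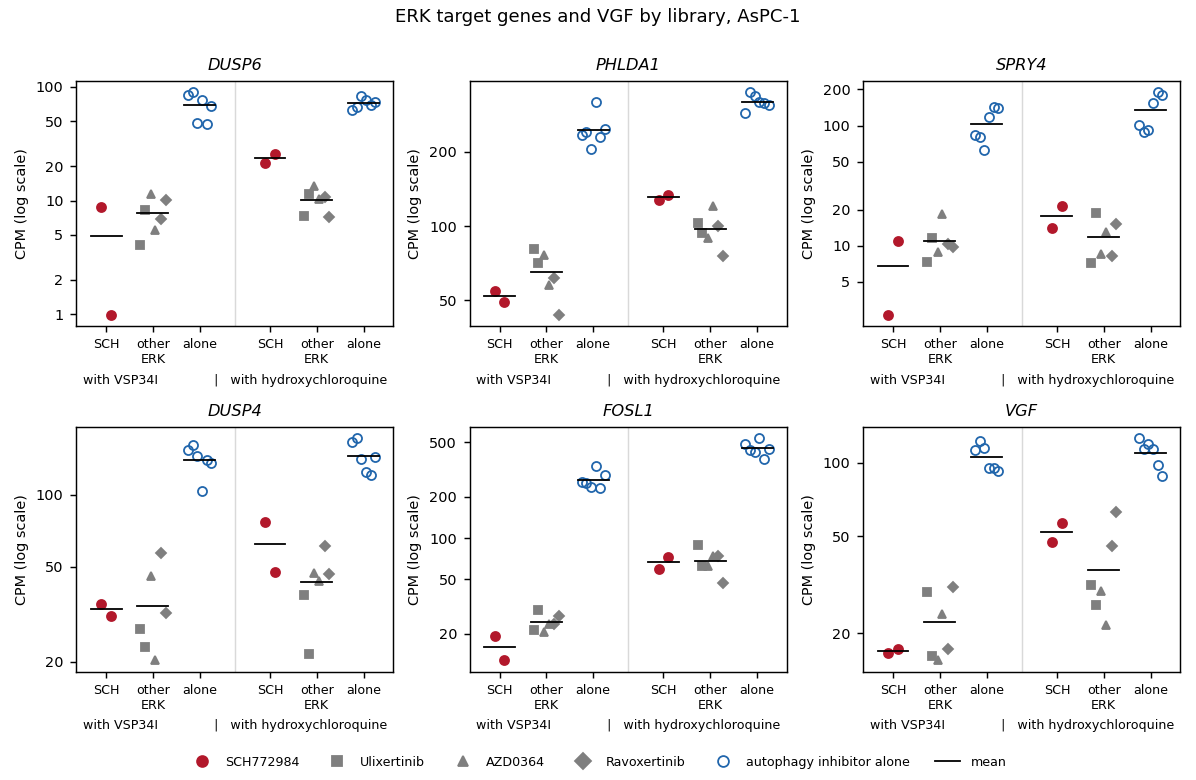
CPM (log axis) of ERK readouts and VGF in each library, with SCH772984, the other 3 ERK inhibitors and no ERK inhibitor side by side for VSP34I (left) and hydroxychloroquine (right). Points are libraries and bars are group means. For DUSP6, PHLDA1, FOSL1 and VGF the SCH772984 libraries lie below the alone libraries with both autophagy inhibitors and are lowest with VSP34I.

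The promoters of 3 genes that fell are shown because they hold letters that known factors read. The window runs from 250 to 30 bases before the gene's start in RefSeq (GRCh38.p14) and was chosen to lie outside every exon of GENCODE v29; all 3 genes are on the minus strand and are printed 5′ to 3′ in the direction of the gene. Capitals mark TGACGTCA, the cAMP response element that ATF and CREB proteins read and that equals its own reverse complement, in VGF (chr7:101165599-101165819) and EPHA2 (chr1:16156099-16156319). In AURKB (chr17:8210255-8210475, inside the GENCODE span of the gene but between exons) they mark ATTGG, which is CCAAT on the other strand, the box bound by NF-Y in many genes of mitosis.
VGF: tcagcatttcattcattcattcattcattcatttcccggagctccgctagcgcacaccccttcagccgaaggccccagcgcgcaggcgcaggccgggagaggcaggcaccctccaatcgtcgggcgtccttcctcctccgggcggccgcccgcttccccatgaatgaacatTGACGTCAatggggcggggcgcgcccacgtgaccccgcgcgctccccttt
EPHA2: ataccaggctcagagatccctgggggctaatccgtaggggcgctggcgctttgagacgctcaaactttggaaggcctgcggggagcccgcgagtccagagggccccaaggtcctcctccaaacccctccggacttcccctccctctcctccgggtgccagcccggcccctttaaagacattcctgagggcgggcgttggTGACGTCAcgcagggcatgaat
AURKB: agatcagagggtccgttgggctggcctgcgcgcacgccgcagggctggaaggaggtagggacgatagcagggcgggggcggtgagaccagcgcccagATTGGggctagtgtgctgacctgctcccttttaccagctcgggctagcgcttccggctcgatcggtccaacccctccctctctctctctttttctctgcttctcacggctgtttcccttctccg
Each window holds its motif 1 time. Among 35116 RefSeq promoters read over the same 221 bases on both strands, 1.27% hold TGACGTCA and 29.9% hold CCAAT, so the CCAAT letters are common. FOSL1 had no entry.

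Ligands and receptors upstream of RAS were lower in part. Of 8 EGF ligands, 5 were tested, and the 1 that fell with VSP34I was AREG (amphiregulin), at 30.4 and 20.7 CPM against 62.9 ± 14.8 CPM in VSP34I alone (SD, n = 6; log2 fold change −1.30 ± 0.26, SE, adjusted p = 0.00013). With hydroxychloroquine AREG was at 48.1 and 52.9 CPM, against 83.7 ± 15.2 CPM in hydroxychloroquine alone, and just missed the threshold (−0.72, adjusted p = 0.052). EREG (epiregulin) and TGFA fell with hydroxychloroquine, by 1.52 and by 1.12 on the log2 scale, and had log2 fold changes of −0.59 and −0.24 with VSP34I that did not pass (adjusted p = 0.43 and 0.67). HBEGF and BTC did not pass with either. The hydroxychloroquine calls were lost without SCH772984-Hydroxychloroquine replicate 1 (EREG −1.24, adjusted p = 0.33), its replicate 2 (EREG −1.85, adjusted p = 0.13, and TGFA −0.83, adjusted p = 0.42) and hydroxychloroquine-alone replicate 2 (EREG −1.36, adjusted p = 0.058). The list's median log2 fold change was −1.06 with VSP34I and −0.72 with hydroxychloroquine, beside −0.05 and −0.01 over all tested genes. Of all tested genes 6.21% fell with VSP34I and 2.87% with hydroxychloroquine. With 5 ligands tested, the counts called are too small to set against these shares.

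Of 19 receptor tyrosine kinases and partners, 15 were tested; 3 rose and 4 fell with VSP34I (median −0.58), and 4 fell with hydroxychloroquine (0.17), beside 6.49% of all tested genes that rose and 6.21% that fell with VSP34I and 2.87% that fell with hydroxychloroquine. The EGF receptor gene EGFR was at 174 and 147 CPM with SCH772984 and VSP34I, against 265.7 to 654.2 CPM in VSP34I alone, and at 277 and 208 CPM with SCH772984 and hydroxychloroquine, against 385.0 to 532.6 CPM in hydroxychloroquine alone. Every SCH772984 library was below every alone library with its autophagy inhibitor, with log2 fold changes of −1.17 ± 0.23 and −0.88 ± 0.22 (SE). FGFR1, a receptor for fibroblast growth factors, fell by 1.91 and by 0.97, and MET, the receptor for hepatocyte growth factor, fell by 0.77 and by 1.27. ERBB3, the kinase-poor partner of EGFR and ERBB2, which was named after its values were seen, rose with VSP34I (1.37 ± 0.34, SE, adjusted p = 0.0046) and had a log2 fold change of 0.86 with hydroxychloroquine (adjusted p = 0.16). Without SCH772984-VSP34I replicate 1 or 2 the value of MET with VSP34I was −0.51 (adjusted p = 0.4) or −1.07 (adjusted p = 0.055), and without VSP34I-alone replicate 1, 2 or 3 it was −0.72 (adjusted p = 0.06, 0.057 and 0.06). With hydroxychloroquine, calls were lost without its replicate 1 (FGFR1 −0.82, adjusted p = 0.22, and MET −1.12, adjusted p = 0.05) and its replicate 2 (FGFR1 −1.12, adjusted p = 0.071, and EGFR −0.71, adjusted p = 0.29). The falls in this list were 2 without SCH772984-VSP34I replicate 2 and 1 or 2 without SCH772984-Hydroxychloroquine replicate 1 or 2, and the rises with VSP34I were 0 without its replicate 1 and 1 without VSP34I-alone replicate 1, 4 or 6.

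Among genes of the RAS to ERK chain itself, HRAS and NRAS, the RAF genes ARAF and BRAF, and the MEK genes MAP2K1 and MAP2K2 did not pass with either autophagy inhibitor. The list holds 17 genes, all tested, and its median log2 fold changes were 0.25 with VSP34I and −0.04 with hydroxychloroquine.

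Genes of the cell cycle fell mainly with VSP34I. Of 44 tested G1/S genes (45 in the list), 19 fell with VSP34I and 4 with hydroxychloroquine, with medians of −1.17 and −0.36 on the log2 scale. Of 50 G2/M genes, 25 fell with VSP34I and 1 with hydroxychloroquine, with medians of −0.85 and −0.20. Of all tested genes 6.21% fell with VSP34I and 2.87% with hydroxychloroquine, so the 1 G2/M gene with hydroxychloroquine is at that background. None of either list rose, and the 1 G2/M fall with hydroxychloroquine became 0 to 2 when single libraries were left out. The response with VSP34I minus that with hydroxychloroquine was below 0 for 42 of 44 G1/S genes and 45 of 50 G2/M genes, beside 52.4% of all tested genes, with medians of −0.82 and −0.74, beside −0.04; it passed for 0 and for 2 genes. Without SCH772984-VSP34I replicate 1 or 2 the G2/M falls with VSP34I were 16 or 13, and without SCH772984-Hydroxychloroquine replicate 1 or 2 or hydroxychloroquine-alone replicate 6 the G1/S falls with hydroxychloroquine were 2, 1 or 2.

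AURKB (chr17:8204733-8210600, minus strand), the Aurora kinase that corrects the attachment of chromosomes to the spindle and whose promoter is printed above, was at 5.70 and 4.44 CPM with SCH772984 and VSP34I, against 24.8 ± 5.4 CPM in VSP34I alone (lowest 19.2, median 23.6, highest 34.2; SD, n = 6). With SCH772984 and hydroxychloroquine it was at 18.6 and 20.4 CPM, against 22.7 ± 4.43 CPM in hydroxychloroquine alone (lowest 17.1, median 22.7, highest 27.5; SD, n = 6). With VSP34I the groups stood apart, and with hydroxychloroquine they overlapped. The log2 fold change was −2.27 ± 0.35 (SE, adjusted p = 1.5e-06) with VSP34I and −0.22 (adjusted p = 0.79) with hydroxychloroquine.

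CCNB1 (chr5:69167010-69178245, plus strand), the cyclin that drives entry into mitosis, was at 101 and 88.8 CPM with SCH772984 and VSP34I, against 188.9 ± 18.7 CPM in VSP34I alone (lowest 164.7, median 186.8, highest 213.6; SD, n = 6). It was at 150 and 173 CPM with SCH772984 and hydroxychloroquine, against 186.4 ± 20.1 CPM in hydroxychloroquine alone (lowest 165.6, median 178.2, highest 218.2; SD, n = 6). Only the VSP34I groups were apart, with log2 fold changes of −0.99 ± 0.14 (SE, adjusted p = 9.1e-08) with VSP34I and −0.21 (adjusted p = 0.45) with hydroxychloroquine. Its kinase partner CDK1 was at 62.7 and 55.3 CPM against 143.0 ± 11.4 CPM in VSP34I alone, and at 75.3 and 88.1 CPM against 115.4 ± 12.1 CPM in hydroxychloroquine alone (SD, n = 6 each). CDK1 fell with VSP34I (−1.27 ± 0.17, SE) and missed the threshold with hydroxychloroquine (−0.50, adjusted p = 0.051). The spindle checkpoint gene MAD2L1 fell with VSP34I (−1.54 ± 0.25, SE) and had a log2 fold change of −0.30 with hydroxychloroquine (adjusted p = 0.57).

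In the G1/S list, PCNA, the sliding clamp of DNA polymerases, was at 157 and 121 CPM with SCH772984 and VSP34I, against 385.9 ± 32.5 CPM in VSP34I alone, and at 153 and 184 CPM with SCH772984 and hydroxychloroquine, against 273.8 ± 33.4 CPM in hydroxychloroquine alone (SD, n = 6 each). The SCH772984 libraries reached similar levels with both autophagy inhibitors, while VSP34I alone stood above hydroxychloroquine alone. PCNA fell by 1.45 and by 0.71 on the log2 scale. RRM2, a subunit of the enzyme that makes deoxynucleotides, fell to 35.0 and 26.6 CPM against 106.9 ± 18.1 CPM in VSP34I alone and to 43.2 and 41.3 CPM against 73.5 ± 5.64 CPM in hydroxychloroquine alone (SD, n = 6 each), with log2 fold changes of −1.79 and −0.80. The hydroxychloroquine call of RRM2 was lost without its replicate 1 (−0.82, adjusted p = 0.087) or 2 (−0.76, adjusted p = 0.17). GINS2, part of the replicative helicase, fell with VSP34I (−1.65) and had −0.71 with hydroxychloroquine (adjusted p = 0.072).

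Ribosome biogenesis genes showed the same order. Of 54 genes 23 fell with VSP34I and 7 with hydroxychloroquine and none rose, with median log2 fold changes of −0.68 and −0.48, where 6.21% and 2.87% of all tested genes fell. NOP56, a core protein of box C/D snoRNPs, was at 169 and 164 CPM with SCH772984 and VSP34I, against 359.9 ± 32.0 CPM in VSP34I alone, and at 209 and 227 CPM with SCH772984 and hydroxychloroquine, against 338.3 ± 44.6 CPM in hydroxychloroquine alone (SD, n = 6 each), with no overlap. It fell by 1.11 and by 0.63 on the log2 scale. The difference was below 0 for 45 of the 54 genes, beside 52.4% of all tested genes, and passed for none (median −0.33). The count with VSP34I was 13 without SCH772984-VSP34I replicate 2, and without SCH772984-Hydroxychloroquine replicate 1 or 2 the count with hydroxychloroquine was 1 or 3. The hydroxychloroquine call of NOP56 was lost without its replicate 1 (−0.57, adjusted p = 0.078).

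**Figure D2:**
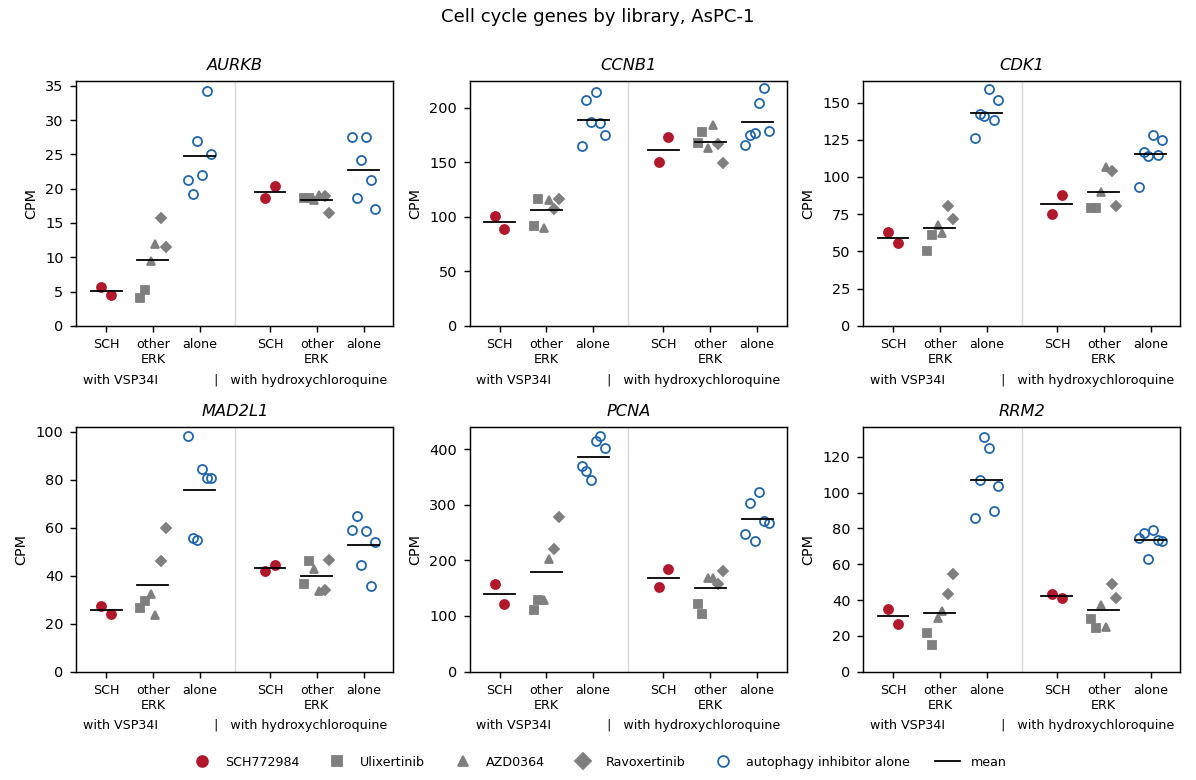
CPM (linear axis from 0) of 6 cell cycle genes in each library, with SCH772984, the other 3 ERK inhibitors and no ERK inhibitor side by side for VSP34I (left) and hydroxychloroquine (right); points are libraries and bars are group means. AURKB is at 5.70 and 4.44 CPM with SCH772984 and VSP34I and at 18.6 and 20.4 CPM with SCH772984 and hydroxychloroquine, beside 17.1 to 34.2 CPM in the alone libraries.

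Epithelial genes rose. Of 30 tested epithelial genes (34 in the list), 20 rose and 1 fell with VSP34I, where 6.49% of all tested genes rose, and 15 rose and 1 fell with hydroxychloroquine, where 3.57% rose. Of all tested genes 6.21% fell with VSP34I and 2.87% with hydroxychloroquine, so the falls are near or under background. The medians were 1.27 and 0.47 on the log2 scale. ELF3, an ETS factor of epithelia, was at 298 and 230 CPM with SCH772984 and VSP34I, against 69.8 ± 4.48 CPM in VSP34I alone, and at 195 and 233 CPM with SCH772984 and hydroxychloroquine, against 52.7 ± 8.82 CPM in hydroxychloroquine alone (SD, n = 6 each), so it rose by 1.92 and by 2.02 with both groups apart. AGR2, a disulfide isomerase needed to fold mucins, rose by 3.33 and by 2.63, and the tight junction gene CLDN3 by 2.40 and by 2.46. The keratin genes KRT8 and KRT19 rose by 1.25 and 0.96 with VSP34I and by 0.68 and 0.52 with hydroxychloroquine; KRT8, like KRT18, has near copies in the genome, and the sources used here do not say how the counting split their reads. With hydroxychloroquine the list's rises were 7 without SCH772984-Hydroxychloroquine replicate 2, and the calls of KRT8 (0.52, adjusted p = 0.12) and KRT19 (0.47, adjusted p = 0.062) were lost without it. All 8 ductal markers were tested, and 7 rose with VSP34I and 6 with hydroxychloroquine.

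Of 17 tested mesenchymal genes (25 in the list), 6 fell with VSP34I and none rose (median −0.84). With hydroxychloroquine 8 fell and 1 rose (median −0.78). Of all tested genes 6.49% rose and 6.21% fell with VSP34I, and 3.57% rose and 2.87% fell with hydroxychloroquine. The 1 rise is thus near background. VIM (vimentin, the intermediate filament of mesenchymal cells) was at 873 and 885 CPM with SCH772984 and VSP34I, against 2913 ± 230.6 CPM in VSP34I alone, and at 1079 and 1171 CPM with SCH772984 and hydroxychloroquine, against 3086 ± 241.5 CPM in hydroxychloroquine alone (SD, n = 6 each). It fell by 1.72 and by 1.46, with wide gaps between the groups. Of 26 tested genes of invasion and adhesion (31 in the list) 3 rose and 10 fell with VSP34I (median −0.98) and 9 fell with hydroxychloroquine (−0.67), beside the same background. Among them, the hyaluronan receptor gene CD44 fell by 1.22 and by 1.19. The rises of this list with VSP34I were 1 without either of its replicates.

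Part of the interferon response list rose. Of 49 tested genes (51 in the list) 23 rose with VSP34I and 9 with hydroxychloroquine and none fell, with medians of 0.66 and 0.42, where 6.49% and 3.57% of all tested genes rose. GBP1, a guanylate-binding protein, was at 11 and 29.1 CPM with SCH772984 and VSP34I, against 0.686 ± 0.439 CPM in VSP34I alone, and at 10.9 and 9.08 CPM with SCH772984 and hydroxychloroquine, against 1.15 ± 0.333 CPM in hydroxychloroquine alone (SD, n = 6 each). Every SCH772984 library was above every alone library, with log2 fold changes of 4.77 ± 0.56 and 3.08 ± 0.55 (SE). TAPBP, which loads peptides onto MHC class I, rose by 1.34 and by 0.67. The list's count with VSP34I was 15 without SCH772984-VSP34I replicate 2. Without SCH772984-Hydroxychloroquine replicate 1 or 2 the count with hydroxychloroquine was 4 or 3, and TAPBP was no longer called (0.73, adjusted p = 0.095, and 0.62, adjusted p = 0.28).

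Of 29 tested NRF2 targets (30 in the list) 13 rose and 2 fell with either autophagy inhibitor, with medians of 0.34 for VSP34I and 0.40 for hydroxychloroquine. The share of all tested genes that rose was 6.49% and 3.57%. The 2 falls with VSP34I stand beside 6.21% of all tested genes, near that background, and those with hydroxychloroquine beside 2.87%. AKR1C2, an aldo-keto reductase that shares long stretches with AKR1C1 and AKR1C3, rose by 1.82 and by 2.39. FTH1 (ferritin heavy chain, with many near copies) rose by 1.22 and by 0.77, and SLC7A11, the cystine transporter, fell by 1.59 and by 2.25. The rises with hydroxychloroquine were 8 or 6 without its replicate 1 or 2. The falls with hydroxychloroquine were 1 without its replicate 2, and those with VSP34I were 0 without its replicate 2 and 1 without VSP34I-alone replicate 1, 4, 5 or 6. The VSP34I call of SLC7A11 was lost without its replicate 2 (−1.38, adjusted p = 0.074).

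Among 34 genes of sterol and fatty acid synthesis, 13 rose and 1 fell with VSP34I and 10 rose and 1 fell with hydroxychloroquine. The medians were 0.71 and 0.46, and 6.49% and 3.57% of all tested genes rose. Those that fell were 6.21% and 2.87%, so the falls in this list were near or under background. SCD, the stearoyl-CoA desaturase, rose by 1.40 and by 0.88. Without SCH772984-VSP34I replicate 2 the rises with VSP34I were 8, and without SCH772984-Hydroxychloroquine replicate 1 or 2 or hydroxychloroquine-alone replicate 4 those with hydroxychloroquine were 5, 2 or 6. Of 46 tested lysosome genes (49 in the list) 13 rose and 2 fell with VSP34I and 4 rose and 2 fell with hydroxychloroquine (medians 0.42 and 0.17). Beside all tested genes, of which 6.49% rose and 6.21% fell with VSP34I and 3.57% rose and 2.87% fell with hydroxychloroquine, the falls were near background. In this list the protease gene CTSD rose by 1.31 and by 1.06 and CTSL fell by 1.34 and by 1.18. The lysosome rises with VSP34I were 6 without its replicate 1, its falls 1 without either replicate, and with hydroxychloroquine the rises were 2 or 0 and the falls 1 without replicate 1 or 2, with CTSD lost without either (1.08, adjusted p = 0.062, and 1.06, adjusted p = 0.079).

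Of 44 tested autophagy genes (46 in the list) 8 rose and 3 fell with VSP34I and 3 rose and 3 fell with hydroxychloroquine (medians 0.16 and 0.19). The falls with VSP34I were at the background of 6.21%, and the other counts stand beside 6.49% of all tested genes that rose with VSP34I and 3.57% that rose and 2.87% that fell with hydroxychloroquine. SQSTM1, the cargo receptor p62, rose by 0.84 and by 0.50, GABARAP, an ATG8 protein, rose with VSP34I (1.04) and had 0.41 with hydroxychloroquine (adjusted p = 0.15), and ATG16L1, which helps to attach ATG8 proteins to membranes, fell by 1.38 and by 1.80. The autophagy counts with VSP34I were 4 rises and 1 fall without its replicate 2. With hydroxychloroquine the rises were 0 without replicate 2 and 1 without hydroxychloroquine-alone replicate 6, and the falls were 1 without either SCH772984 replicate or without hydroxychloroquine-alone replicate 2, 4, 5 or 6. SQSTM1 with hydroxychloroquine was lost without SCH772984-Hydroxychloroquine replicate 2 (0.29, adjusted p = 0.7) and hydroxychloroquine-alone replicate 6 (0.44, adjusted p = 0.067).

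The remaining lists had 5 or fewer calls in a direction, and nothing particular to them is read from so few. Of all tested genes 6.49% rose and 6.21% fell with VSP34I, and 3.57% rose and 2.87% fell with hydroxychloroquine. With VSP34I, 4 of 39 ATF4 targets and 1 of 26 ER folding genes fell, 3 of 29 genes of glycolysis and hypoxia rose and 5 fell, 1 of 20 p53 targets rose and 2 fell, 2 of 12 BCL2 family genes rose and 1 fell, 2 of 13 CDK inhibitors and cyclins D fell, 2 of 20 YAP and TEAD targets rose and 2 fell, and 1 of 13 messenger RNAs of mitochondrial DNA rose. With hydroxychloroquine the counts were 1 fall for ATF4 targets, none for ER folding, 2 rises and 3 falls for glycolysis and hypoxia, 1 fall for p53 targets, 1 fall for the BCL2 family, 1 fall for CDK inhibitors and cyclins D, 2 rises and 3 falls for YAP and TEAD targets, and none for mitochondrial DNA. CDKN1A, which encodes the CDK inhibitor p21 and stands in 2 of these lists, fell by 1.29 with VSP34I and by 1.40 with hydroxychloroquine, and without SCH772984-VSP34I replicate 2 it was no longer called there (−0.95, adjusted p = 0.11). CA9, a carbonic anhydrase that hypoxia induces, rose by 1.92 and by 1.44.

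**Figure D3:**
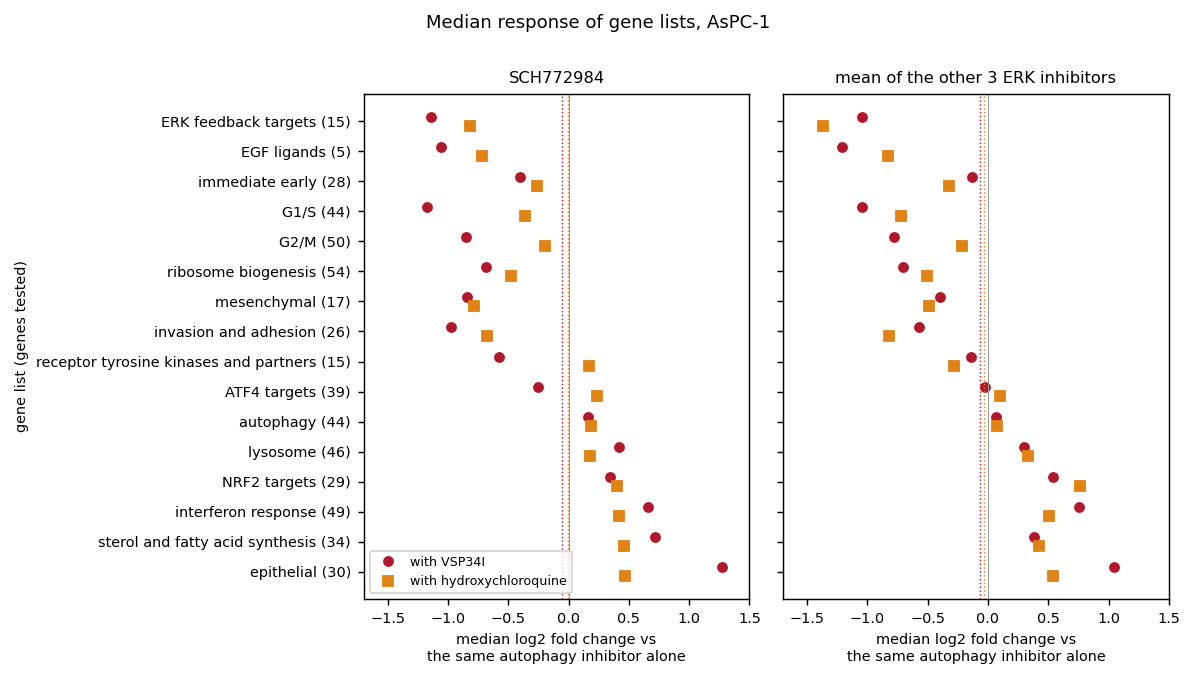
Median log2 fold change of 16 gene lists, SCH772984 on the left and the mean of the other 3 ERK inhibitors on the right, each against the alone group with the same autophagy inhibitor; the dotted lines are the medians of all tested genes. G1/S, G2/M and epithelial genes lie further from them with VSP34I than with hydroxychloroquine under SCH772984. For the other 3, the response with VSP34I minus that with hydroxychloroquine was also below 0 in 34 of 44 G1/S and 48 of 50 G2/M genes. Both panels use the same alone libraries.

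The largest rises with hydroxychloroquine, by the rule for named genes, were MARVELD2, ALPP, AGR2, PDK4 and ALDH1A1, and the largest falls included SPRY4, ANTXR2, FOSL1 and DKK1. ALPP, a placental alkaline phosphatase with near-identical paralogs, was at 44.9 and 58.2 CPM with SCH772984 and VSP34I, against 5.62 ± 2.04 CPM in VSP34I alone, and at 71.8 and 76.8 CPM with SCH772984 and hydroxychloroquine, against 8.49 ± 3.49 CPM in hydroxychloroquine alone (SD, n = 6 each). It rose alike with both, by 3.20 and by 3.14. ALDH1A1, a retinaldehyde dehydrogenase, was at 138 and 120 CPM against 13.3 ± 2.54 CPM in VSP34I alone and at 31.5 and 52.3 CPM against 6.94 ± 1.84 CPM in hydroxychloroquine alone (SD, n = 6 each), and rose by 3.28 and by 2.59. DKK1, a secreted WNT antagonist, fell by 1.65 and by 2.54, and the anthrax toxin receptor gene ANTXR2 by 2.51 and by 2.87. PDK4, a kinase that shuts off pyruvate dehydrogenase, was at 56.4 and 21.7 CPM against 6.28 ± 2.36 CPM in hydroxychloroquine alone (SD, n = 6) and was not called without replicate 1 (2.01, adjusted p = 0.3). DKK1 with VSP34I was not called without its replicate 2 (−1.45, adjusted p = 0.071).

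With VSP34I the 5 largest rises were CDH6, MLLT3, FAM107A, RILPL1 and RNF24, and all 5 were high mainly in replicate 2. CDH6 was at 38.8 and 1662 CPM in SCH772984-VSP34I replicates 1 and 2, at 16 and 333 CPM with hydroxychloroquine, at 4.48 to 8.56 CPM in VSP34I alone, and at 786 CPM in 1 hydroxychloroquine-alone library. MLLT3 was at 1030 and 6183 CPM with SCH772984 and VSP34I, against 7.29 to 127.8 CPM in VSP34I alone. MARVELD2 rose with hydroxychloroquine through 1 library, at 1993 CPM in replicate 1 and 134 CPM in replicate 2, against 59.0 to 105.3 CPM in hydroxychloroquine alone. In each of these genes the other library of the pair was much lower. Without SCH772984-VSP34I replicate 2, CDH6 (2.38, adjusted p = 0.52), FAM107A (1.65, adjusted p = 0.78), RILPL1 (0.86, adjusted p = 0.73) and RNF24 (1.23, adjusted p = 0.73) were not called, and without SCH772984-Hydroxychloroquine replicate 1 neither was MARVELD2 (0.75, adjusted p = 0.62). The largest falls with VSP34I were RBM14-RBM4, PSIP1, FOSL1, SPRY4 and DUSP6. PSIP1 fell through 1 VSP34I-alone library at 4412 CPM and was not called without it (−0.67, adjusted p = 0.13) or without SCH772984-VSP34I replicate 1 or 2 (−4.50, adjusted p = 0.14, and −4.24, adjusted p = 0.19). RBM14-RBM4, a readthrough gene that shares exons with its parents, was lost without either SCH772984-VSP34I replicate (−9.79, adjusted p = 0.1, and −3.71, adjusted p = 0.28).

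The response to SCH772984 with VSP34I differed from that with hydroxychloroquine for 21 genes, 11 higher (0.0862% of tested genes) and 10 lower (0.0784%) with VSP34I. Among the 21, 9 were also called between VSP34I alone and hydroxychloroquine alone, as were 757 of all 12761 tested genes. The part of these unequal alone levels in the differences was not tested. Of the 21, 7 had moved in the same direction with both autophagy inhibitors and 2 in opposite directions. Another 9 had passed in the VSP34I comparison and not in the other, and 3 in the hydroxychloroquine comparison and not in the other. The ERK readouts DUSP6 (−2.15 ± 0.50), FOSL1 (−1.27 ± 0.27) and PHLDA1 (−0.95 ± 0.22, log2 difference ± SE) were among the 10 lower genes. The mitotic genes AURKB (−2.05 ± 0.44) and CCNB1 (−0.78 ± 0.18, SE) were among them too. So was VGF (−1.56 ± 0.34, SE), which is not in the list of feedback targets and was named through its call in this same difference. The adjusted p-values were 0.048 for DUSP6, PHLDA1 and CCNB1, 0.03 for VGF and FOSL1 and 0.026 for AURKB, all near the threshold. The other 4 lower genes were TCF25, SNAPC1, SERBP1 and MARVELD2.

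TCF25, a subunit of the ribosome quality control complex, was called lower with VSP34I and higher with hydroxychloroquine, the first only just. It was at 59.3 and 45.9 CPM with SCH772984 and VSP34I, against 88.5 ± 18.7 CPM in VSP34I alone (lowest 63.1, median 92.2, highest 111.5; SD, n = 6), and at 99 and 126 CPM with SCH772984 and hydroxychloroquine, against 57.5 ± 13.2 CPM in hydroxychloroquine alone (lowest 45.5, median 53.5, highest 77.3; SD, n = 6). The groups were apart both times, below with VSP34I and above with hydroxychloroquine, and the difference was −1.79 ± 0.36 (SE, adjusted p = 0.021). The call with VSP34I (−0.76, adjusted p = 0.049) held in 4 of the 16 fits that left out a library (−0.65 without VSP34I-alone replicate 6 to −0.81 without SCH772984-VSP34I replicate 2, both lost) and in 0 of 9 other settings, and that with hydroxychloroquine (1.04) was lost without its replicate 2 (0.56, adjusted p = 0.55), without the plate term (0.97, adjusted p = 0.0921) and on plate A (0.54, adjusted p = 0.328). SNAPC1, part of the complex that starts transcription of small nuclear RNA genes, was at 6.46 and 4.44 CPM with SCH772984 and VSP34I and 19.2 and 30.6 CPM with SCH772984 and hydroxychloroquine, a difference of −2.53 ± 0.59 (SE). SERBP1, an RNA-binding protein of resting ribosomes with near copies in the genome, was at 141 and 158 CPM with SCH772984 and VSP34I and 383 and 209 CPM with SCH772984 and hydroxychloroquine (−0.90 ± 0.21, SE), and without SCH772984-Hydroxychloroquine replicate 1 the difference was −0.45 (adjusted p = 0.66).

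Of the 11 higher genes, ACTG1 (chr17:81509971-81523847, minus strand), cytoplasmic gamma actin, which is close in sequence to ACTB and has pseudogenes, passed with the smallest adjusted p. It was at 536 and 407 CPM with SCH772984 and VSP34I, against 345.3 ± 41.6 CPM in VSP34I alone (lowest 294.0, median 342.8, highest 407.5; SD, n = 6). It was at 261 and 219 CPM with SCH772984 and hydroxychloroquine, against 354.1 ± 35.1 CPM in hydroxychloroquine alone (lowest 315.6, median 349.7, highest 394.1; SD, n = 6). Both hydroxychloroquine libraries lay below their alone group, while of the VSP34I libraries 1 lay above its alone group and the other at its upper edge. The log2 fold change was 0.44 ± 0.11 (SE, adjusted p = 0.0038) with VSP34I and −0.56 ± 0.12 (adjusted p = 0.00068) with hydroxychloroquine, a difference of 1.01 ± 0.16 (adjusted p = 0.00089). The difference kept its call with each of the 16 libraries left out in turn, at 0.95 to 1.08. It was lost without the plate term (1.01, adjusted p = 0.277), on plate A (1.07, adjusted p = 0.129) and on plate B (0.94, adjusted p = 0.218). The separate calls were lost without SCH772984-VSP34I replicate 2 (0.44, adjusted p = 0.064) and without SCH772984-Hydroxychloroquine replicate 1 (−0.48, adjusted p = 0.076).

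KRT18 (chr12:52948871-52952901, plus strand), a keratin of simple epithelia, was at 2968 and 3214 CPM with SCH772984 and VSP34I, against 1312 ± 153.1 CPM in VSP34I alone, and at 2033 and 2821 CPM with SCH772984 and hydroxychloroquine, against 1700 ± 172.4 CPM in hydroxychloroquine alone (SD, n = 6 each). It rose with both, by 1.24 and by 0.51, and the difference was 0.74 ± 0.13 (SE, adjusted p = 0.0036). The alone groups ran the other way, with VSP34I alone below hydroxychloroquine alone. The same held for PLAC8, a small cysteine-rich protein, at 883 and 995 CPM against 379.8 ± 27.8 CPM in VSP34I alone and 788 and 840 CPM against 538.7 ± 52.6 CPM in hydroxychloroquine alone (SD, n = 6 each; difference 0.71 ± 0.15, SE). FBP1, an enzyme of gluconeogenesis, was at 67.7 and 67.1 CPM with SCH772984 and VSP34I and 57.5 and 64.1 CPM with SCH772984 and hydroxychloroquine, against 15.4 ± 3.28 CPM in VSP34I alone and 33.1 ± 6.11 CPM in hydroxychloroquine alone (SD, n = 6 each; difference 1.26 ± 0.29, SE). For FBP1 the SCH772984 levels were close, and the alone levels were apart. KRT18's difference was lost without SCH772984-Hydroxychloroquine replicate 1 (0.61, adjusted p = 0.095), and its rise and that of FBP1 with hydroxychloroquine were lost without replicate 2 (0.36, adjusted p = 0.1, and 0.84, adjusted p = 0.059).

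PAM, the enzyme that amidates peptide hormones, was at 68 and 67.6 CPM with SCH772984 and VSP34I, against 34.0 ± 8.98 CPM in VSP34I alone, and at 24.9 and 23.4 CPM with SCH772984 and hydroxychloroquine, against 40.2 ± 8 CPM in hydroxychloroquine alone (SD, n = 6 each). The difference was 1.72 ± 0.38 (SE, adjusted p = 0.036). TFPI, the inhibitor of tissue factor, was at 87.0 and 100 CPM with SCH772984 and VSP34I and 42.4 and 46.0 CPM with SCH772984 and hydroxychloroquine (1.22 ± 0.29, SE), and ANXA3, a calcium-dependent membrane binder, at 60.1 and 55.3 CPM and 30.6 and 35.0 CPM (1.59 ± 0.37, SE). In these 3 genes both VSP34I libraries were above both hydroxychloroquine libraries. FGFBP1, which releases fibroblast growth factors from the matrix, and SH3BP4, which acts in endocytosis, fell with hydroxychloroquine (by 1.65 and by 0.90) and had log2 fold changes of −0.01 and 0.07 with VSP34I, a difference of 1.64 ± 0.34 and 0.98 ± 0.23 (SE). SNHG29, a host gene of small nucleolar RNAs, was at 778 and 552 CPM with SCH772984 and VSP34I and 268 and 277 CPM with SCH772984 and hydroxychloroquine (1.27 ± 0.26, SE). MARVELD2 differed through SCH772984-Hydroxychloroquine replicate 1, without which the difference was −0.95 (adjusted p = 0.84) in place of −4.02. PIGT differed through SCH772984-VSP34I replicate 2 (112 and 887 CPM), without which the difference was 1.09 (adjusted p = 0.84) in place of 3.21. The call of PAM with VSP34I was lost without its replicate 2 (0.95, adjusted p = 0.081).

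Except for ACTG1, each of the 21 differences lost its call in some of the 16 fits that left out a library. The call was kept in 2 of 16 for PHLDA1, in 3 for DUSP6 and TFPI, in 4 for SNAPC1 and SERBP1, in 6 for CCNB1, FBP1 and ANXA3, in 7 for SH3BP4, in 10 for PAM, in 11 for AURKB, in 12 for VGF and MARVELD2, in 13 for FOSL1, TCF25, PIGT, SNHG29 and PLAC8, in 14 for FGFBP1 and in 15 for KRT18. Of 9 other settings, 3 kept the call for DUSP6, PHLDA1, SNAPC1, ANXA3, TFPI, SH3BP4 and SERBP1, and 4 to 7 kept it for the other 14 genes. The difference of DUSP6 ran from −4.47 without SCH772984-VSP34I replicate 1 to −1.39 without its replicate 2 (adjusted p = 0.62). Without that replicate 2 it was −1.01 for FOSL1 (adjusted p = 0.49), −1.63 for VGF (adjusted p = 0.23), −0.90 for PHLDA1 (adjusted p = 0.39), −1.90 for AURKB (adjusted p = 0.29) and −0.66 for CCNB1 (adjusted p = 0.49). Without SCH772984-Hydroxychloroquine replicate 2 it was −1.98 for DUSP6 (adjusted p = 0.28), −1.12 for FOSL1, −1.37 for VGF and −0.90 for PHLDA1 (adjusted p = 0.25 each), −1.97 for AURKB (adjusted p = 0.12) and −0.72 for CCNB1 (adjusted p = 0.28). The direction was the same in all 16 fits for these 6 genes. The number of differing genes ranged from 7 without hydroxychloroquine-alone replicate 2 to 34 without SCH772984-VSP34I replicate 1, was 15 on plate A and 10 on plate B, and was 71 by DESeq2.

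**Figure D4:**
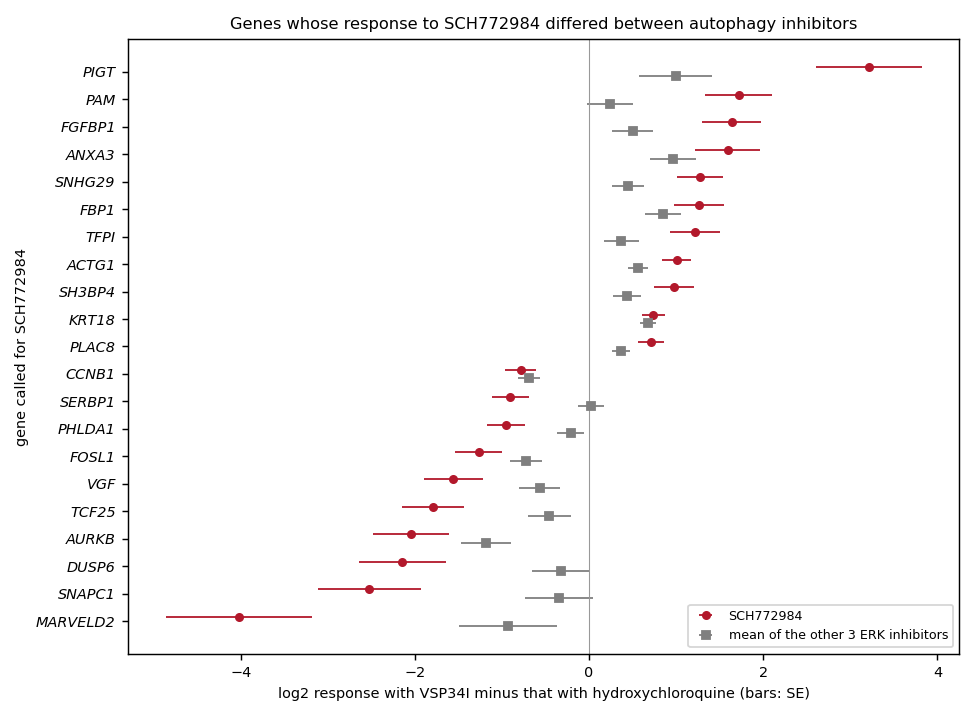
Log2 response with VSP34I minus that with hydroxychloroquine (bars are SE) for the 21 genes that differed under SCH772984 (red), beside the same value for the mean of the other 3 ERK inhibitors (grey). DUSP6 is at −2.15 under SCH772984 and −0.32 under the others, and KRT18 at 0.74 and 0.67; both use the same alone libraries.

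The counts for the other 3 ERK inhibitors stood beside 1620 genes with VSP34I and 821 with hydroxychloroquine for SCH772984. With VSP34I, 1756 genes moved for ulixertinib (13.8%), 1465 for AZD0364 (11.5%) and 989 for ravoxertinib (7.75%), and with hydroxychloroquine 1224 (9.59%), 1117 (8.75%) and 951 (7.45%). The difference between both autophagy inhibitors passed for 12 genes (0.094%), 10 genes (0.0784%) and 18 genes (0.141%). These comparisons share the alone libraries with those of SCH772984, so values are set side by side. For the mean of the 3, the difference was −0.32 ± 0.33 for DUSP6, −0.21 ± 0.15 for PHLDA1, −0.57 ± 0.23 for VGF and −0.72 ± 0.18 for FOSL1 (SE). It was −1.18 ± 0.29 for AURKB, −0.69 ± 0.13 for CCNB1, 0.57 ± 0.11 for ACTG1 and 0.67 ± 0.09 for KRT18 (SE). The medians of the G1/S and G2/M lists in this difference were −0.43 and −0.56, beside −0.82 and −0.74 under SCH772984, and that of the ERK feedback targets was 0.21, beside −0.54. The median over all tested genes was −0.04 for both. For the mean of the 3 the difference was below 0 for 34 of 44 G1/S, 48 of 50 G2/M and 10 of 30 epithelial genes. Under SCH772984 it was below 0 for 42, 45 and 10 of them.

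Whether the difference itself depended on the ERK inhibitor was tested by subtracting that of the other 3 from that of SCH772984, in which the alone libraries cancel. It passed for 0 of 12761 genes by edgeR, with 864 at an unadjusted p under 0.05 and a smallest adjusted p of 0.0668 (TXN2), and for 15 by DESeq2. For DUSP6 this value was −1.82 (95% interval, not adjusted for the number of genes, −2.88 to −0.77; adjusted p = 0.344), for PHLDA1 −0.74 (−1.19 to −0.30; adjusted p = 0.369) and for SPRY4 −1.42 (−2.27 to −0.57; adjusted p = 0.369). For VGF it was −0.99 (−1.68 to −0.30; adjusted p = 0.55) and for FOSL1 −0.55 (−1.11 to 0.01; adjusted p = 0.743). For the mitotic genes the intervals held 0: AURKB −0.87 (−1.76 to 0.03), CCNB1 −0.10 (−0.46 to 0.26) and CDK1 0.00 (−0.46 to 0.46). KRT18 was at 0.06 (−0.20 to 0.33) and ACTG1 at 0.44 (0.11 to 0.77; adjusted p = 0.578). The intervals of DUSP6 and SPRY4 do not hold 0, but neither passed after adjustment over all genes, so a difference between the ERK inhibitors was not shown.

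Set against the other 3 ERK inhibitors directly, no feedback target passed the test with either autophagy inhibitor, and the values are given as a description. DUSP6 was at 21.5 and 25.9 CPM with SCH772984 and hydroxychloroquine, against 7.18 to 13.3 CPM (median 10.6) in the 6 libraries of the other 3 with hydroxychloroquine, and the groups did not overlap. With VSP34I it was at 8.74 and 0.987 CPM with SCH772984, against 4.09 to 11.4 CPM (median 7.56) in the other 6, where they overlapped. The log2 difference was 1.25 (95% interval 0.63 to 1.87; adjusted p = 0.0661) with hydroxychloroquine and −0.58 (−1.42 to 0.27) with VSP34I. PHLDA1 was at 128 and 134 CPM against 75.4 to 120 CPM with hydroxychloroquine and at 54.7 and 49.4 CPM against 43.7 to 80.9 CPM with VSP34I, a log2 difference of 0.44 (0.14 to 0.74) and −0.30 (−0.63 to 0.02). Of the 15 feedback targets, 14 were above the mean of the other 3 with hydroxychloroquine, beside 50.6% of all tested genes, and 6 with VSP34I, beside 50.5%. The medians were 0.61 and −0.10 (27 genes called, 0.212%, with hydroxychloroquine, and 11, 0.0862%, with VSP34I; both comparisons were added after values were seen).

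Averaged over both autophagy inhibitors, 24 genes differed between SCH772984 and the mean of the other 3 (0.188% of tested genes), 18 higher and 6 lower. In 9 of the 24 the highest SCH772984 library was at least 5 times the next (CD82, MLLT3, PCM1, STXBP3, KIF1B, FAM241A, ZNF493, RILPL1 and BLOC1S3). The genes the naming rule takes are KIAA0040, MLLT3, RILPL1 and CDH6, higher, and AKR1B10, lower; the rest are named after their values were seen. Without SCH772984-VSP34I replicate 2 the count was 2, and the rule's genes were all lost, with KIAA0040 at 0.73 (adjusted p = 0.46), MLLT3 at 2.99 (adjusted p = 0.33), RILPL1 at 0.79 (adjusted p = 0.98), CDH6 at 1.82 (adjusted p = 0.95) and AKR1B10 at −0.67 (adjusted p = 0.61).

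AKR1B10 (chr7:134527592-134541408, plus strand), an aldo-keto reductase under NRF2 with the near copy AKR1B15, was at 29.3 and 12.8 CPM with SCH772984 and VSP34I, against 35.7 to 58.4 CPM in the 6 libraries of the other 3 and 12.4 ± 2.73 CPM in VSP34I alone (SD, n = 6). It was at 21.2 and 23.4 CPM with SCH772984 and hydroxychloroquine, against 28.7 to 42.4 CPM in the other 6 and 6.06 ± 1.22 CPM in hydroxychloroquine alone (SD, n = 6). All 4 SCH772984 libraries were below all libraries of the other 3 with the same autophagy inhibitor, and the log2 difference was −0.91 ± 0.20 (SE, adjusted p = 0.019). Other NRF2 targets were lower too: AKR1C2 by 0.40 ± 0.08 (SE, adjusted p = 0.011) and ABCC2, a drug exporter, by 0.50 ± 0.10 (SE, adjusted p = 0.01). Of 29 NRF2 targets 26 were below the mean of the other 3, beside 50% of all tested genes, with a median of −0.18 and 3 called lower, as were 0.047% of all tested genes. AKR1B10 was lost without SCH772984-Hydroxychloroquine replicate 1 (−0.86, adjusted p = 0.19) or 2 (−0.95, adjusted p = 0.13) and without Ulixertinib-Hydroxychloroquine replicate 1 (−0.84, adjusted p = 0.053). AKR1C2 was lost without either hydroxychloroquine replicate (−0.36, adjusted p = 0.19, and −0.42, adjusted p = 0.065) or SCH772984-VSP34I replicate 2 (−0.32, adjusted p = 0.52), and ABCC2 without SCH772984-Hydroxychloroquine replicate 1 (−0.44, adjusted p = 0.19) or SCH772984-VSP34I replicate 2 (−0.49, adjusted p = 0.18).

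KIAA0040, a gene of little known function, was at 15.2 and 18.8 CPM with SCH772984 and VSP34I, against 6.38 to 15.8 CPM in the other 6 and 118.5 ± 13.5 CPM in VSP34I alone (SD, n = 6). It was at 32.3 and 17.1 CPM with SCH772984 and hydroxychloroquine, against 8.30 to 16.2 CPM in the other 6 and 132.1 ± 20.5 CPM in hydroxychloroquine alone (SD, n = 6). All ERK inhibitor libraries were far below the alone libraries, and SCH772984 was 0.87 ± 0.18 above the other 3 on the log2 scale (SE, adjusted p = 0.011), a call lost without SCH772984-Hydroxychloroquine replicate 1 (0.69, adjusted p = 0.27) and SCH772984-VSP34I replicate 2 (0.73, adjusted p = 0.46).

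PIK3R2, the p85 beta subunit of PI3 kinase, was the 1 gene below all 3 other ERK inhibitors in the separate pairs. It was at 0.76 and 1.97 CPM with SCH772984 and VSP34I, against 10.1 to 24.9 CPM in the other 6 and 14.6 ± 3.77 CPM in VSP34I alone (SD, n = 6). With SCH772984 and hydroxychloroquine it was at 10.9 and 6.61 CPM, against 4.22 to 17.5 CPM in the other 6 and 12.7 ± 3.51 CPM in hydroxychloroquine alone (SD, n = 6). The gap was seen with VSP34I, where no library overlapped, and with hydroxychloroquine the values overlapped. The SCH772984 values with VSP34I lie near the floor, in libraries of 2754123 and 2103585 counts, so they rest on few counts. Against the mean of the other 3 the log2 difference was −2.08 ± 0.35 (SE, adjusted p = 0.0012), and it was called with each of the 16 libraries left out in turn. Within VSP34I it was −3.68 (95% interval −4.82 to −2.54, adjusted p = 0.00031; without SCH772984-VSP34I replicate 1 −3.03, adjusted p = 0.055) and within hydroxychloroquine −0.47 (−1.25 to 0.30).

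**Figure D5:**
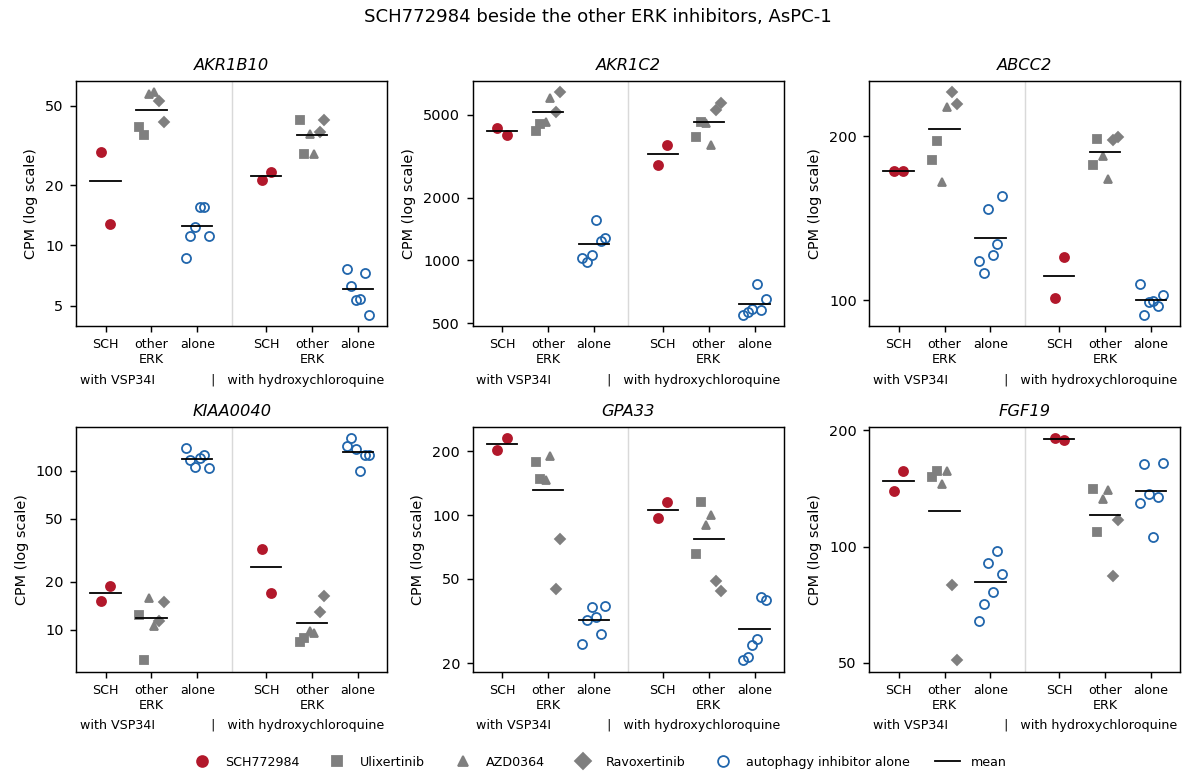
CPM (log axis) of genes that differed between SCH772984 and the other 3 ERK inhibitors, in each library with SCH772984, the other 3 and no ERK inhibitor, for VSP34I (left) and hydroxychloroquine (right); points are libraries and bars are group means. AKR1B10 is at 12.8 to 29.3 CPM in the 4 SCH772984 libraries and at 28.7 to 58.4 CPM in the 12 libraries of the other 3.

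In the separate pairs, with p-values adjusted over the 3 pairs together, 13 genes differed from ulixertinib (0.102%), 11 from AZD0364 (0.0862%) and 33 from ravoxertinib (0.259%), each averaged over both autophagy inhibitors. Beside ulixertinib, SCH772984 left higher levels of DUSP4 (0.72 ± 0.15, SE, adjusted p = 0.0185) and of cell cycle genes, NUSAP1 (0.73), MCM7 (0.79) and SGO1 (1.17). Beside AZD0364, the nuclear import gene KPNB1 (−0.67 ± 0.12) and the phosphatase subunit gene PPP2CA (−0.90 ± 0.19, SE) were lower. Beside ravoxertinib, the glycoprotein gene GPA33 (1.51 ± 0.21), the hormone-like growth factor gene FGF19 (1.05 ± 0.16), ALPP (1.67 ± 0.26), PLAC8 (0.57 ± 0.09) and the tetraspanin gene TSPAN8 (0.93 ± 0.15, SE) were higher. AKR1C2 (−0.61), ABCC2 (−0.64), GCLM (−1.21) and NQO1 (−0.37), which are NRF2 targets, and CDC6 (−1.32), which loads the replicative helicase, were lower than with ravoxertinib. The counts were 2, 1 and 8 without SCH772984-VSP34I replicate 2.

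Of the ERK readouts, DUSP4 passed against ulixertinib, as given above (0.72, 95% interval 0.42 to 1.02). Its value was 0.25 (−0.04 to 0.54) against AZD0364 and −0.10 (−0.39 to 0.19) against ravoxertinib. The readouts DUSP6 and FOSL1 were tested in the same way. DUSP6 differed from ulixertinib by 0.54 (95% interval −0.12 to 1.21), from AZD0364 by 0.14 (−0.50 to 0.78) and from ravoxertinib by 0.32 (−0.33 to 0.97). FOSL1 differed by −0.43 (−0.77 to −0.09), −0.25 (−0.59 to 0.09) and −0.25 (−0.59 to 0.09). None of the values of DUSP6 and FOSL1 passed after adjustment, and the bounds leave room for differences of over 1 log2 unit for DUSP6 against ulixertinib.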

How the data were processed

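PLATE-Seq libraries were deposited by the authors as 1 table of raw counts per gene symbol (25435 symbols, 136 libraries); the submitters' processing notes list kallisto 0.44.0 and GRCh38 without their roles. The 68 AsPC-1 libraries were fitted together in edgeR 4.0.16 (R 4.3.3, limma 3.58.1): TMM scaling, filterByExpr by treatment group (12761 genes), robust quasi-likelihood with a term for each of 30 groups and 1 for plate, 37 residual degrees of freedom. P-values were adjusted by Benjamini-Hochberg over all genes of a comparison (over 3 comparisons together for the single ERK inhibitors), with a threshold of 0.05. CPM values use TMM-scaled library sizes. Tables were made in Python 3.11.15 with pandas 2.3.3, NumPy 2.4.6 and SciPy 1.17.1, and scripts were tested on simulated data.

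Members and gene lists were chosen with earlier results of these data known. Genes named in the text were all measured members of the ERK feedback, RAS-ERK and EGF ligand lists, up to 3 called members of every other list, the 5 largest rises and falls with each autophagy inhibitor, and up to 8 genes per direction in the difference and against the other ERK inhibitors, limited to called genes whose log2 CPM averaged 4 or more and whose change had 1 sign and a size of 0.5 or more on both plates. The genes said to be named after their values were seen, those of the 21 differences outside this rule (TFPI, ANXA3, SH3BP4, SERBP1) and those of the separate pairs fall outside it. Some genes that the rule takes are not reported here.

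Replicate numbers of the combinations mark plates, per the labels, so plate stayed in the model; over 45 pairs of groups the correlation of the plate A minus plate B difference had a median of 0.0375 (−0.1043 to 0.2121). Replicates correlated at 0.9098 to 0.9504 and none differed by as little as sampling noise. Alternatives were DESeq2 1.42.0, its size factors in edgeR, other filters, no robust fit, no plate term, single plates, 28 libraries only, and each library left out.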

Additional observations from a re-analysis of the deposited data

Results flagged for a closer look

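In groups of 6 alone libraries, 1 library stood far from the other 5 for 9 of 142 combinations of a gene or library measure with a group. Chance flags about 1 in 20, so this count is near that rate. All 9 were genes. In VSP34I alone these were IER3 at 40.0 CPM and STXBP3 at 167 CPM in replicate 4, EGFR at 654 CPM in replicate 2, PSIP1 at 4412 CPM in replicate 3 and NOP56 at 298 CPM in replicate 5. In hydroxychloroquine alone they were RRM2 at 62.9 CPM, PIGT at 269 CPM and CDH6 at 786 CPM in replicate 3 and MLLT3 at 180 CPM in replicate 4.

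The response to SCH772984 with VSP34I differed from that with hydroxychloroquine, by the test of the difference itself (edgeR, adjusted p under 0.05), for 21 genes. Higher log2 responses with VSP34I were found for ACTG1 (1.01), ANXA3 (1.59), FBP1 (1.26), FGFBP1 (1.64), KRT18 (0.74), PAM (1.72), PIGT (3.21), PLAC8 (0.71), SH3BP4 (0.98), SNHG29 (1.27) and TFPI (1.22). Lower responses were found for AURKB (−2.05), CCNB1 (−0.78), DUSP6 (−2.15), FOSL1 (−1.27), MARVELD2 (−4.02), PHLDA1 (−0.95), SERBP1 (−0.90), SNAPC1 (−2.53), TCF25 (−1.79) and VGF (−1.56). The highest of the 4 SCH772984 libraries was at least 5 times the next for MARVELD2 and PIGT, whose differences were −0.95 without SCH772984-Hydroxychloroquine replicate 1 and 1.09 without SCH772984-VSP34I replicate 2.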

How the results depend on the processing

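Counts of calls depended on the setting most where they were small. With the 28 libraries of ERK inhibitors and alone groups in place of all 68, the count was 7 for the difference between autophagy inhibitors under SCH772984, 3 against the mean of the other ERK inhibitors (1 with VSP34I and 8 with hydroxychloroquine), 5 against ulixertinib, 4 against AZD0364, 14 against ravoxertinib and 1 for the difference minus that of the others, and the difference under ulixertinib, AZD0364 and ravoxertinib was 6, 1 and 6. By DESeq2 these counts were 71, 49 (33 and 41), 42, 42, 67, 15, 47, 30 and 46. With genes of mean log2 CPM of at least 4 they were 34 for the difference, 28 against ulixertinib, 23 against AZD0364, 55 against ravoxertinib, 2 for the difference minus that of the others and 35 for the difference under ulixertinib. With no filter the difference was 12 and AZD0364 gave 7. Without robust fitting AZD0364 gave 22, the difference under ulixertinib 34 and the difference minus that of the others 1, and with DESeq2's size factors in edgeR the difference under ulixertinib was 22.

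The replicate block of the model is plate, which same-numbered libraries of the combinations share. Without that replicate block the counts were 5 for the difference, 6 against ulixertinib, 15 against ravoxertinib, 1 for the difference minus that of the others and 4, 5 and 10 for the difference under ulixertinib, AZD0364 and ravoxertinib, and 1393 with VSP34I, 686 with hydroxychloroquine, 2010 for their average and 17 against the mean of the other ERK inhibitors. On plate A and plate B alone, SCH772984 gave 750 and 702 with VSP34I, 333 and 267 with hydroxychloroquine, 1179 and 1102 for their average, and 15 and 10 for the difference. The causes were not tested.

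Leaving out 1 library at a time, where a lone library is assumed to vary like the other groups, the ranges were 725 to 1646 with VSP34I, 332 to 827 with hydroxychloroquine, 1510 to 2191 for the average, 7 to 34 for the difference, 2 to 41 against the mean of the others (6 to 23 with VSP34I, 13 to 32 with hydroxychloroquine), 2 to 25, 1 to 21 and 8 to 37 against ulixertinib, AZD0364 and ravoxertinib, and 0 to 8 for the difference minus that of the others. For ulixertinib they were 869 to 1777 with VSP34I, 582 to 1242 with hydroxychloroquine and 8 to 34 for the difference, for AZD0364 692 to 1480, 575 to 1128 and 3 to 28, and for ravoxertinib 436 to 1023, 530 to 965 and 9 to 21. The share of mitochondrial ribosomal RNA differed by 0.911 to 1.07 points. Of the named values, 3 turned sign: STXBP3 against the others with VSP34I without SCH772984-VSP34I replicate 2 (−0.92, in a range of −0.92 to 8.71), FAM241A against the others without SCH772984-Hydroxychloroquine replicate 2 (−0.20, in a range of −0.20 to 2.98), and AKR1B10 with VSP34I on plate B (−0.13). With 2 libraries a group and 2100698 to 5172291 counts each, small differences and low genes are poorly resolved.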
